A study of Danio rerio with 15 samples.

Results

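The subject is the response of zebrafish larvae to tefluthrin at 60 nM: 3 libraries of larvae exposed to 60 nM tefluthrin against 3 libraries of untreated larvae, 6 of the 15 libraries in the series. The libraries were chosen by the treatment label of each sample. All came from pools of whole larvae of the wild-type NHGRI-1 line at 72 h post fertilisation (hpf), and exposure ran from 48 to 72 hpf. The other libraries, 3 in each group, came from larvae exposed over the same hours to 2.3 µM tefluthrin, to 780 nM acetochlor or to 7.8 µM acetochlor, a chloroacetanilide herbicide. For the other tefluthrin group the sample labels and the design text give 2.3 µM, whereas the column headers of its deposited tables give 2.3 nM; it is called 2.3 µM here after the labels, and the files do not settle whether 60 nM was the lower or the higher concentration. The labels call the controls untreated and name no carrier solvent, number of larvae per pool, clutch or sequencing date, so a difference of that kind between the groups cannot be told apart from the exposure.

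Tefluthrin is a pyrethroid insecticide. Pyrethroids bind voltage-gated sodium channels and keep them open, which makes nerve and muscle cells fire repeatedly. Zebrafish at this age have hatched, live on their yolk and are still building liver, gut, swim bladder and jaw. The series title names metabolic disruption as the subject of the study.

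Each value is an estimated number of reads for 1 Ensembl transcript, that is 1 annotated RNA product of a gene; a gene with several isoforms has several such transcripts. None of the 64995 identifiers could be paired with a gene in the reference tables used (0 matched the gene name table and 0 the RefSeq table), so transcripts are named by identifier, no gene, pathway or tissue list is used, and the tissue was not checked against markers. Library totals ran from 19886430 to 24576528 counts in control and from 17354405 to 18743266 at 60 nM. Levels are given as CPM, counts scaled to a common library size with TMM factors. By counting alone, a count of 0 allows a level of up to 0.119 to 0.167 CPM in these 6 libraries (3 counts). This floor does not cover the division between transcripts of reads that they share. CPM are not divided by transcript length, so the levels themselves are compared between groups. The abundance classes and rankings used below order transcripts by number of reads, which also depends on their length. In RNA from whole larvae, fewer cells of a type and less RNA per cell cannot be told apart.

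At 60 nM, 3036 transcripts were higher and 2839 lower than in untreated larvae, which is 8.47% and 7.92% of the 35865 tested (edgeR's quasi-likelihood test, Benjamini-Hochberg adjusted p under 0.05, referred to below as called). Together 16.4% were called. The changes were mostly modest: 1876 of the 5875 calls were under 0.5 on the log2 scale and 2303 lay between 0.5 and 1. The balance of directions turned with size. Among calls under 0.5, 40.8% were higher than in control, between 1 and 2 the share was 61.7%, and between 2 and 3 it was 85.3%, with 185 transcripts higher and 32 lower. Of the 234 calls of 3 or more, 168 were higher. A transcript at 0 in all libraries of 1 group has a fitted change that depends on a small added count, which applied to 67 of these 234. With such transcripts set at the bound that the floor allows, 154 calls of 3 or more were higher and 51 lower, and between 2 and 3 they were 193 and 41. A called difference of at least 1 in log2 was found for 1121 transcripts that rose (3.13% of those tested) and 575 that fell (1.6%), together 4.73%. The number of lower calls was 1852 without control replicate II and 1892 without tefluthrin 60 nM replicate I. Without tefluthrin 60 nM replicate III the balance turned, with 2400 transcripts called higher and 2434 lower.

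The 3 exposed and 3 control libraries did not overlap for 5830 of the 5875 called transcripts (99.2%); over all transcripts tested this held for 35.2%. The transcripts called higher held 11.3% to 12.3% of the counts in the control libraries and 19.1% to 19.8% in the exposed libraries. Those called lower went from 18.7% to 19.8% of the counts in control to 12.03% to 12.84% at 60 nM. These shares describe transcripts that were chosen for differing and carry no test.

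The share of transcripts called rose with abundance. The tested transcripts were divided by their mean CPM over the 6 libraries into classes under 1, 1 to 10, 10 to 100 and 100 or more. The share called was 1.73% of 7727 transcripts in the lowest class, 12.5% of 16464 in the next, 30.4% of 10427 between 10 and 100 CPM and 41.7% of 1247 in the highest. The median standard error of the log2 fold change fell across the same classes, from 0.99 to 0.27, 0.12 and 0.09. Without 1 library the lowest class gave 0.914% (control replicate I), 0.848% (control replicate II), 1.09% (tefluthrin 60 nM replicate I) and 1.08% (tefluthrin 60 nM replicate II). The class of 1 to 10 CPM gave 8.16% and 7.94% without control replicates I and II.

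The size of the called changes ran the other way. Their median absolute log2 fold change was 3.17 in the lowest class, 0.93 between 1 and 10 CPM, 0.54 between 10 and 100 CPM and 0.50 at 100 CPM or more. In the lowest class 39 called transcripts were at 0 in 1 group, and with these at their bound its median was 2.35. In the lowest class 133 of the 134 calls were at least 1 in log2, and at 100 CPM or more 89 of 520 were. The smallest called change was 0.16 at 100 CPM or more and 0.98 under 1 CPM. Among all transcripts tested, called or not, the middle 50% of log2 fold changes ran from -0.25 to 0.25 in the highest class and from -0.61 to 0.66 in the lowest.

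Called changes were larger upwards than downwards in every class. At 100 CPM or more the median was 0.57 for the 261 transcripts called higher and -0.44 for the 259 called lower. Between 10 and 100 CPM it was 0.60 for 1604 and -0.48 for 1565. Between 1 and 10 CPM it was 1.07 for 1092 and -0.82 for 960, and under 1 CPM 3.50 for 79 and -2.65 for 55, or 2.77 and -2.04 with transcripts at 0 in 1 group at their bound. The medians over all tested transcripts stayed close to 0 in each class, between -0.04 and 0, and under scaling by library totals alone the overall median was 0.01.

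**Figure D1:**
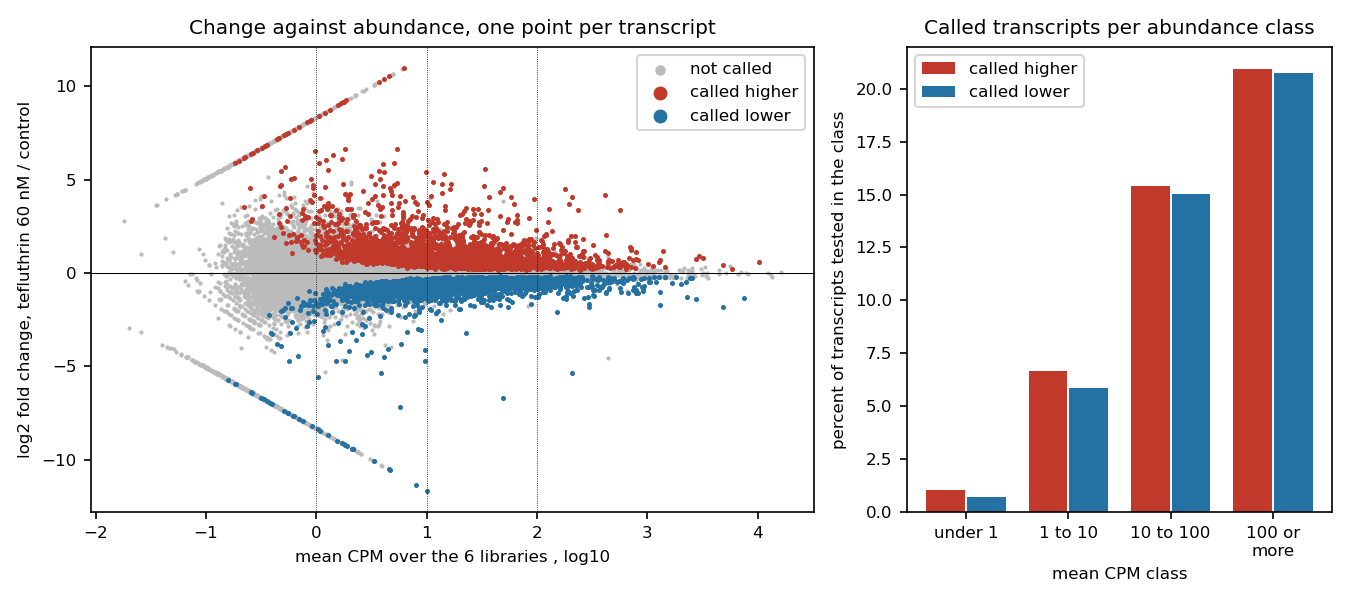
Left, the log2 fold change of tefluthrin 60 nM over control (vertical) against the log10 of the mean CPM over the 6 libraries (horizontal), 1 point for each of the 35745 tested transcripts above 0 in some of them; dotted lines mark the class limits, and the slanted rows of points are transcripts listed at 0 in 1 group, whose fitted value depends on a small added count. Right, the percent of tested transcripts called higher and lower in each class, which rises from 1.02% and 0.712% under 1 CPM to 20.9% and 20.8% at 100 CPM or more.

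The 3 named increases with the smallest p-values all lay in the class of 10 to 100 CPM. ENSDART00000170934.2, which had the smallest p-value of all, stood at 10.8, 11.5 and 11.8 CPM in the control libraries and at 184.7, 188.5 and 152.5 CPM at 60 nM. All exposed libraries lay far above all controls, a log2 fold change of 3.95 with an SE of 0.106 (edgeR adjusted p = 1.55e-09). Its estimates were whole numbers in all 6 libraries, so that no division of its reads with another transcript is visible. ENSDART00000169865.2, also with whole estimates, went from 4.16, 3.84 and 4.65 CPM to 35.7, 40.2 and 36.6 CPM, a log2 fold change of 3.15 with an SE of 0.110 (edgeR adjusted p = 1.29e-08). ENSDART00000048550.8 had 1.68, 1.15 and 1.31 CPM in control and 65.2, 63.3 and 70.5 CPM at 60 nM. This was the largest rise between 10 and 100 CPM among transcripts eligible to be named, a log2 fold change of 5.58 with an SE of 0.194 (edgeR adjusted p = 1.29e-08). ENSDART00000181222.1 rose from 0.754, 0.639 and 0.695 CPM to 25.9, 28.01 and 29.9 CPM, by 5.31 in log2 with an SE of 0.387 (edgeR adjusted p = 2.23e-06). Estimates of ENSDART00000048550.8 and ENSDART00000181222.1 were fractional.

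In the most abundant class the largest rises were of similar size. ENSDART00000042189.7 had 14.8, 15.2 and 15.1 CPM in control and 358.2, 297.2 and 364.4 CPM at 60 nM. The controls differed from each other by less than 1 CPM, and the log2 fold change was 4.50 (SE 0.232, edgeR adjusted p = 1.83e-07). ENSDART00000141904.3 went from 40.9, 37.2 and 49.6 CPM to 743, 740.4 and 848.3 CPM, a log2 fold change of 4.19 with an SE of 0.232 (edgeR adjusted p = 2.72e-07). The exposed libraries of both lay far above every control, and both had fractional estimates.

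Decreases of comparable size were fewer. ENSDART00000169821.2 had the smallest p-value among those that fell: 100.7, 110.2 and 78.0 CPM in control against 0.750, 0.609 and 1.42 CPM at 60 nM. Its log2 fold change was -6.70 (SE 0.309, edgeR adjusted p = 9.13e-08). ENSDART00000164249.2 fell from 43.2, 45.05 and 35.3 CPM to 4.81, 3.996 and 4.50 CPM, a log2 fold change of -3.21 with an SE of 0.194 (edgeR adjusted p = 5.34e-07). The exposed libraries of both lay below every control, and both transcripts had fractional estimates. For ENSDART00000164249.2 the exposed libraries lay close together. Without tefluthrin 60 nM replicate III the log2 fold change of ENSDART00000169821.2 was -7.15. ENSDART00000145496.2 went from 232.1, 256.8 and 240.3 CPM to 56.0, 55.7 and 62.2 CPM (log2 fold change -2.07, SE 0.131, edgeR adjusted p = 7.48e-07).

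Among the decreases with the smallest p-values were smaller ones with closely spaced libraries. ENSDART00000152299.2 fell from 33.6, 32.9 and 31.4 CPM to 13.2, 13.3 and 13.65 CPM. The change of -1.29 in log2 had an SE of 0.061 (edgeR adjusted p = 9.88e-08). ENSDART00000063357.6 fell from 56.1, 55.1 and 48.9 CPM to 18.05, 20.3 and 20.8 CPM, by 1.44 in log2 with an SE of 0.0778 (edgeR adjusted p = 2.34e-07). ENSDART00000142096.3 shows the opposite case. It had 425.6, 426.3 and 367.6 CPM in control, but 16.6, 0 and 12.8 CPM at 60 nM, so that 1 exposed library was listed at 0 while the others were not. Its log2 fold change of -5.37 had an SE of 0.816 (edgeR adjusted p = 0.000586), and its estimates were fractional. Without tefluthrin 60 nM replicate I its log2 fold change was -5.99, and without replicate II, the library listed at 0, it was -4.785.

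**Figure D2:**
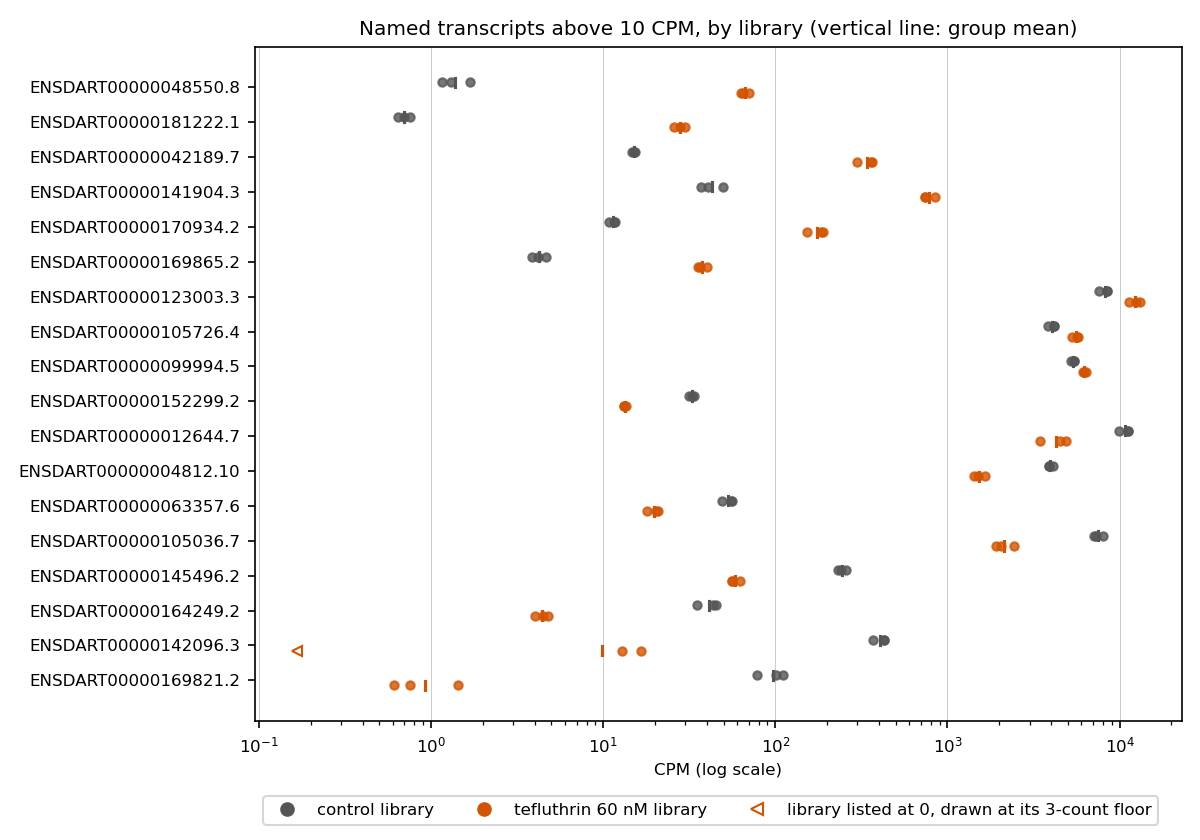
CPM on a log axis for the named transcripts with a mean above 10 CPM, 1 point per library (grey, control; orange, tefluthrin 60 nM), with a vertical line at each group mean; an open triangle marks a library listed at 0, drawn at its floor of 3 counts. The groups do not overlap for any transcript shown, which the naming rule required. The gap is widest for ENSDART00000169821.2, with group means of 96.3 and 0.928 CPM and fractional estimates.

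Among the most abundant of the named transcripts in each direction, those that fell moved further than those that rose. This did not hold for the whole class of 100 CPM or more. There the median log2 fold change was 0.57 for the 261 transcripts called higher and -0.44 for the 259 called lower. ENSDART00000012644.7, the most abundant called lower, stood at 11150, 11140 and 9980 CPM in control and at 3440, 4514 and 4886 CPM at 60 nM. Every exposed library lay below every control, and its log2 fold change was -1.33 (SE 0.173, edgeR adjusted p = 0.000188). ENSDART00000105036.7 fell from 7330, 7960 and 7097 CPM to 1920, 2041 and 2421 CPM, a log2 fold change of -1.81 with an SE of 0.169 (edgeR adjusted p = 1.35e-05). ENSDART00000004812.10 fell from 3912, 4100 and 3894 CPM to 1423, 1495 and 1658 CPM (log2 fold change -1.38, SE 0.129, edgeR adjusted p = 1.34e-05). All of these decreases had fractional estimates.

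The most abundant of the named transcripts called higher changed by less. ENSDART00000123003.3 went from 8448, 7645 and 8466 CPM to 13120, 11340 and 12460 CPM, a log2 fold change of 0.59 with an SE of 0.160 (edgeR adjusted p = 0.0244). ENSDART00000105726.4 went from 4184, 4184 and 3861 CPM to 5686, 5279 and 5711 CPM, a log2 fold change of 0.45 with an SE of 0.0557 (edgeR adjusted p = 0.00013). ENSDART00000099994.5 went from 5433, 5421 and 5231 CPM to 6350, 6180 and 6109 CPM, a log2 fold change of 0.21 with an SE of 0.0637 (edgeR adjusted p = 0.0381). The call of ENSDART00000099994.5 was lost when any 1 of the 6 libraries was left out, and that of ENSDART00000123003.3 when any but tefluthrin 60 nM replicate II was; their edgeR, DESeq2 and limma adjusted p-values ranged over the alternatives from 0.00732 to 0.205 and from 0.00196 to 0.0985.

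Some transcripts were near absent from 1 group and present in the other. With at most 3 counts in every library of 1 group and at least 30 in every library of the other, 36 transcripts met this description, 19 present at 60 nM and 17 present in control. Of these, 29 were at exactly 0 in all 3 libraries of the low group, 28 were called, and 5 had whole estimates in all 6 libraries. The count was 8 when at least 100 counts were required, and 73 to 85 when 1 library was left out, since fewer libraries then had to meet the limits.

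For the 5 with whole estimates no division of reads is visible in fractions. Reads listed wholly under another transcript would not show in this way. ENSDART00000183979.1 was at 0 in all controls and at 11.7, 13.5 and 11.8 CPM at 60 nM, at least 91.1-fold higher when set against the mean floor of 0.136 CPM per control library. Although its libraries were close, its edgeR adjusted p was 0.0381. Its edgeR and limma adjusted p-values ranged over the alternatives from 0.000226 to 0.0967, and DESeq2 gave it none. Its call was lost when any 1 library was left out. ENSDART00000188485.1 was at 0 in the controls and at 3.19, 3.94 and 3.30 CPM at 60 nM, at least 25.6-fold higher (edgeR adjusted p = 0.00322). ENSDART00000136022.2 was at 0 in the controls and at 1.88, 1.83 and 1.625 CPM at 60 nM, at least 13.1-fold higher (edgeR adjusted p = 0.00136). ENSDART00000111386.4 went the other way: it had 16.5, 17.7 and 13.4 CPM in control and 0 in all exposed libraries, at least 98.0-fold lower against a mean floor of 0.162 CPM (edgeR adjusted p = 0.0126). With limma voom its adjusted p was 0.632. ENSDART00000183979.1 and ENSDART00000111386.4 also differed between replicates of another group. In the acetochlor 7.8 µM libraries the first had 14.1, 0 and 0 CPM and the second 0, 14.1 and 14.9 CPM. They were complementary: in each of the 15 libraries either the first or the second was at 0 and the other was present. Whichever was present had 13.4 to 17.7 CPM in control and 11.7 to 13.5 CPM at 60 nM. Their changes are therefore not independent of each other, and whether they list the same reads was not tested. The remaining one, ENSDART00000189174.1, was chosen after its values were seen; it had 2, 0 and 0 counts in control and 60, 39 and 58 at 60 nM (edgeR adjusted p = 0.00226).

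The other near-absent transcripts named had fractional estimates, so their folds hold only for the division of reads as listed. ENSDART00000115383.5 had 21.3, 29.0 and 9.39 CPM in control and 0 in all exposed libraries, at least 123-fold lower (edgeR adjusted p = 0.00252; limma voom adjusted p = 0.586). ENSDART00000180929.1 was at 0 in control and at 6.47, 13.1 and 7.81 CPM at 60 nM, at least 67.3-fold higher (edgeR adjusted p = 0.0019). ENSDART00000018432.9 fell from 11.7, 15.6 and 7.06 CPM to 0.0781, 0.152 and 0 CPM (log2 fold change -7.19, SE 1.19, edgeR adjusted p = 0.00105; limma voom adjusted p = 0.503). Without tefluthrin 60 nM replicate II its log2 fold change was -8.45. ENSDART00000115383.5 and ENSDART00000018432.9 also varied widely, and in the same order, between the acetochlor 7.8 µM libraries. There the first had 2.99, 8.52 and 40.7 CPM and the second 1.82, 5.20 and 22.1 CPM. Within control, 2.3 µM tefluthrin and 780 nM acetochlor the libraries of both also stood in the same order. Their falls may therefore not be independent of each other, and whether they share reads was not tested. ENSDART00000039667.7 and ENSDART00000181630.1 were at 0 in control and had 4.95 to 14.2 and 8.53 to 10.7 CPM at 60 nM, yet neither passed the test (edgeR adjusted p = 0.0521 and 0.0909). DESeq2, and edgeR on these 6 libraries alone, called both, whereas limma voom called neither (limma voom adjusted p = 0.426 and 0.427). Both also differed between replicates of groups that the fit on these 6 libraries leaves out. At 2.3 µM tefluthrin the first had 2.18, 0 and 5.98 CPM and the second 7.93, 0 and 6.65 CPM. With 780 nM acetochlor they had 0, 3.745 and 0 CPM and 0, 0 and 7.20 CPM.

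Under 1 CPM, the largest named changes rested on few counts. ENSDART00000153818.3 was at 0 in control and at 1.92, 0.619 and 2.80 CPM at 60 nM, at least 13.1-fold higher (edgeR adjusted p = 0.023). ENSDART00000179797.1 and ENSDART00000132869.2 were at 0 in all exposed libraries and had 0.681 to 3.25 and 1.09 to 2.09 CPM in control, at least 11.2-fold and 9.33-fold lower (edgeR adjusted p = 0.0282 and 0.0468). All but a few fits without 1 library lost these calls: that of ENSDART00000132869.2 was lost without any 1 of the 6, that of ENSDART00000153818.3 without any but tefluthrin 60 nM replicate II, and that of ENSDART00000179797.1 without any but control replicate III. Limma voom called none of these 3. Their estimates were fractional, so their folds hold only for the division of reads as listed. Another pair of named transcripts had whole estimates and 3 counts in all at 60 nM. ENSDART00000081432.5 had 0.939, 1.38 and 1.59 CPM in control, a ratio of 24.3 to the level at 60 nM (95% exact Poisson interval of the low count 8.32 to 118, edgeR adjusted p = 0.00226). ENSDART00000077635.3 had 1.16, 0.768 and 0.794 CPM in control, a ratio of 16.9 (5.77 to 81.7, edgeR adjusted p = 0.0131). Its 3 counts at 60 nM all lay in replicate III, without which the fitted log2 fold change went from -3.92 to -7.22, and edgeR on these 6 libraries alone did not call it (adjusted p = 0.05). That of ENSDART00000081432.5 went from -4.44 to -5.32 without tefluthrin 60 nM replicate II. Limma voom called neither.

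Isoforms of a gene, and near-identical genes, share sequence, and reads from shared sequence are divided between transcripts by estimation. Such division leaves fractional estimates. Of the 35865 tested transcripts, 8494 had whole estimates in all 6 libraries and 27371 had a fractional one in at least 1. Called were 22.9% of the former and 14.3% of the latter. Between 1 and 10 CPM the shares were 17.3% and 10.99%, and between 10 and 100 CPM 35.3% and 28.2%; at 100 CPM or more they were 40.95% and 41.95%. Whole estimates also had the smaller median standard error of the log2 fold change between 1 and 10 CPM, 0.20 against 0.30. Over all calls the whole estimates were balanced in direction, with 981 transcripts called higher and 968 lower. Their calls of at least 1 in log2 were not, with 321 higher and 139 lower. Called changes in whole estimates were smaller than in fractional ones, with a median absolute log2 fold change of 0.60 against 0.71.

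The fractions can be used to find transcripts that divide reads only with each other, because the members' estimates then add up to a whole number in every library. Sets of this kind were searched over all 15 libraries, and 5093 were found, 3802 of them pairs and 1291 of 3 to 10 transcripts, with 12227 members in all. This is 29.2% of the transcripts with a fractional estimate in any library. The sum over such a set is a count of reads whose division does not matter. Whether a set is 1 gene or several is not known here. With each set summed, edgeR's quasi-likelihood test called 1535 of 5055 sets (30.4%), 818 higher and 717 lower, and 6144 of 30538 units in all (20.1%).

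Among called transcripts in tested sets, most were in a set whose sum was called in the same direction. The sum includes the transcript's own counts, so this agreement is not independent of the call. Of 1589 called transcripts in tested sets, 1459 (91.8%) were in a set whose sum was called in the same direction, 128 were in a set whose sum was not called, and 2 were in a set called in the opposite direction. The share called in the same direction was 95.8% of the 1177 transcripts that held 50% or more of their set. It was 82.1% of the 318 that held 10% to 50%, and 74.5% of the 94 that held less than 10%. The median absolute change of the sums was below that of the members in every size band, with 0.348 against 0.375 for members that changed by less than 0.5 and 2.23 against 2.38 between 2 and 3. Members were taken because they were called and were banded by their own change, and the rest of the set was not. Smaller medians for the sums follow in part from that choice. For the 66 transcripts with a log2 change of 3 or more the median absolute change was 4.40 (3.59 with the 18 that were at 0 in 1 group at their bound), and the median for the sums of their sets was 3.18. Of these 66, 15 were in a set that was not called. By share of the set, the medians were 0.597 for members and 0.566 for sums where the member held 50% or more, 0.862 and 0.625 at 10% to 50%, and 1.51 and 0.628 under 10%.

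**Figure D3:**
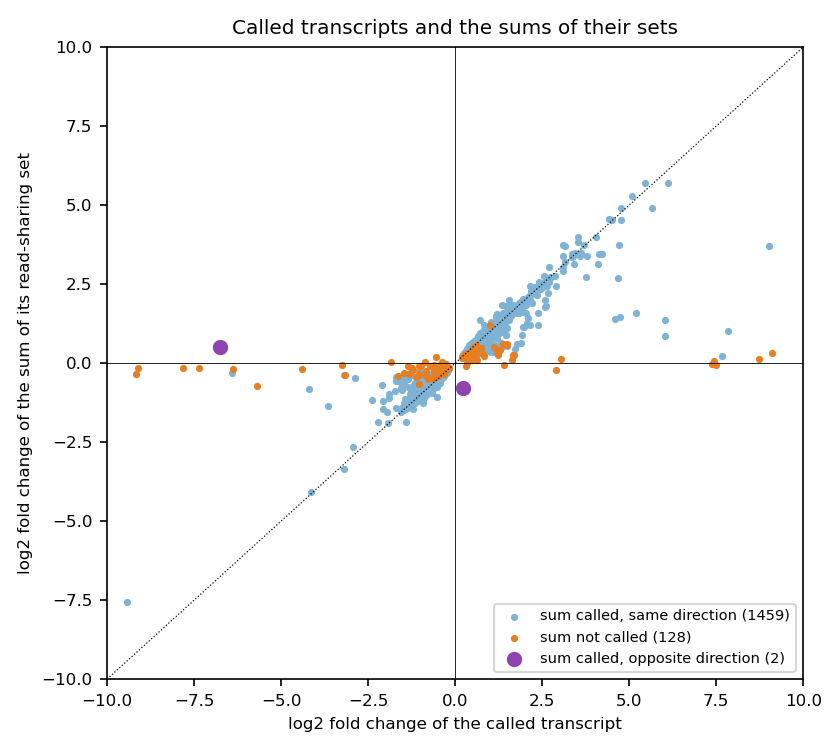
The log2 fold change (tefluthrin 60 nM over control) of each called transcript in a read-sharing set (horizontal) against that of the sum of its set (vertical); the dotted line marks equal values. Blue, the 1459 transcripts whose set was called in the same direction; orange, the 128 whose set was not called; purple, the 2 whose set was called in the opposite direction; the points along the horizontal zero line are transcripts that changed while their set did not pass the test.

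Conversely, 171 sets were called higher and 160 lower although none of their members was called. Of the 3724 sets with no member called, 91.1% were not called as sums, against 69.6% of all 5055 sets tested. The pairs shown here were chosen after their values were seen, as those with the smallest adjusted p of the sum. They are extreme and not typical cases. The pair of ENSDART00000172567.2 and ENSDART00000163017.2 is an example. The first had 2.15, 4.44 and 3.75 CPM in control and 3.005, 0.610 and 6.28 CPM at 60 nM. The second had 10.01, 10.5 and 8.12 CPM in control and 2.53, 5.44 and 0 CPM at 60 nM. Each varied between the exposed libraries, but their sum did not: it was 12.2, 14.9 and 11.9 CPM in control and 5.54, 6.05 and 6.28 CPM at 60 nM. The log2 fold change of the sum was -1.11 (SE 0.125, edgeR adjusted p = 3.97e-05), where the members had edgeR adjusted p-values of 0.978 and 0.121. The pair of ENSDART00000081350.6 and ENSDART00000126033.5 rose as a sum from 1.07, 1.13 and 1.03 CPM to 5.38, 5.61 and 5.85 CPM (log2 fold change 2.38, SE 0.277, edgeR adjusted p = 5.45e-05), and its members did not pass (edgeR adjusted p = 0.0755 and 0.0722).

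The sums also bear on the named and near-absent transcripts. Of the 32 named transcripts, 8 had whole estimates in all 6 libraries and 24 had fractional ones. Only the fractional ones listed next belong to a set. For the rest, among them ENSDART00000169821.2, ENSDART00000048550.8, ENSDART00000141904.3 and ENSDART00000012644.7, the division of reads was not resolved. For ENSDART00000042189.7 the pair it belongs to rose by 4.51 in log2 (SE 0.235), almost the change of the transcript itself. The same held for ENSDART00000105726.4 (0.46), ENSDART00000152299.2 (-1.29) and ENSDART00000063357.6 (-1.45). ENSDART00000145496.2 held the smaller part of its pair, whose sum fell from 1130 to 489.7 CPM, by 1.21 in log2 against 2.07 for the transcript alone. ENSDART00000039667.7, listed at 0 in all controls and present at 60 nM, belongs to a set of 6 whose sum went the other way, from 93.5 to 66.3 CPM (log2 fold change -0.50, SE 0.072, edgeR adjusted p = 0.000321).

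Of the 36 near-absent transcripts, 7 belong to a read-sharing set, and 4 of these sets were not called. ENSDART00000155233.3, chosen after its values were seen, had 4.96, 3.03 and 2.61 CPM in control and 0 at 60 nM, while its partner ENSDART00000112884.4 had 2.95, 4.34 and 4.38 CPM in control and 5.28, 5.83 and 6.445 CPM at 60 nM. Their sum was 7.92, 7.37 and 6.99 CPM in control and 5.28, 5.83 and 6.445 CPM at 60 nM (edgeR adjusted p = 0.0529). ENSDART00000164209.2 was at 0 in control and at 2.695, 3.43 and 1.75 CPM at 60 nM, but its pair with ENSDART00000132976.3 had 18.6, 16.8 and 16.8 CPM in control and 18.9, 18.0 and 19.6 CPM at 60 nM (edgeR adjusted p = 0.462). In contrast, the pair of ENSDART00000090727.6 fell as a whole from 4.58 to 0.0175 CPM (edgeR adjusted p = 6.74e-06), and the set of 4 with ENSDART00000153515.3 rose from 0.868 to 11.5 CPM (edgeR adjusted p = 1.16e-06).

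**Figure D4:**
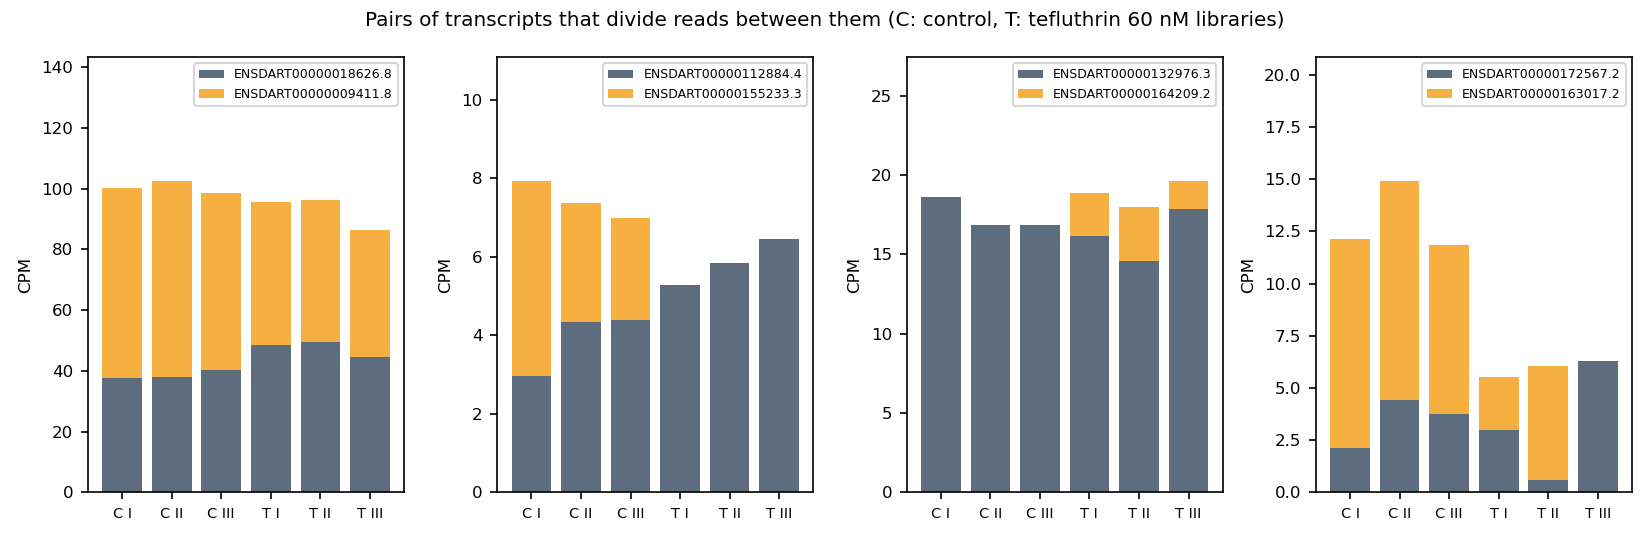
CPM in each control (C) and tefluthrin 60 nM (T) library for 4 pairs of transcripts that divide reads only with each other, stacked so that the height of a bar is the sum of the pair. In the first 3 pairs the division moves and the sum does not pass the test; in the fourth the division varies between libraries and the sum is lower at 60 nM, 5.54 to 6.28 CPM against 11.9 to 14.9 CPM.

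Members of 1 set were called in both directions in 3 of the 5055 sets tested. No member was called in 3724 of the 5055, and only a set with more than 1 called member could show this. In the pair of ENSDART00000018626.8 and ENSDART00000009411.8 the first rose from 37.8, 37.9 and 40.3 CPM to 48.5, 49.4 and 44.6 CPM (edgeR adjusted p = 0.0141). The second fell from 62.55, 64.5 and 58.1 CPM to 47.1, 46.8 and 41.9 CPM (edgeR adjusted p = 0.00286). The sum had 100.4, 102.4 and 98.4 CPM in control and 95.6, 96.2 and 86.5 CPM at 60 nM, and did not pass (log2 fold change -0.11, SE 0.0739, edgeR adjusted p = 0.379). In the other sets with members called in both directions the sum was called. The sum of 1 set fell from 378.2 to 218.2 CPM although its member ENSDART00000059533.5 was called higher by 0.24 in log2. Another rose from 31.5 to 44.2 CPM although its scarce member ENSDART00000187067.1, at most 0.797 CPM, was called lower.

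Whether the levels at 60 nM differ from those in the other exposed groups was tested directly, with no control library in the contrast. Between 60 nM and 2.3 µM tefluthrin 6847 of 35865 transcripts differed (19.1%), 3592 higher (10%) and 3255 lower (9.08%) at 60 nM. The split by direction was not stable: it was 5683 higher and 1864 lower when counts were scaled by library totals alone, 3021 and 3285 with only these 6 libraries, and 3055 and 3221 with limma voom. In all, 4426 transcripts differed without tefluthrin 2.3 µM replicate I. Between tefluthrin 60 nM and acetochlor 780 nM, 5195 transcripts differed (14.5%), 2717 higher (7.58%) and 2478 lower (6.91%) with tefluthrin. That count was 3398 when only these 6 libraries were fitted, with 1355 lower, and 1566 were lower without tefluthrin 60 nM replicate I.

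Of the 32 named transcripts, 27 differed between tefluthrin 60 nM and acetochlor 780 nM and 13 between the tefluthrin concentrations, by edgeR's test; all had been chosen for their values at 60 nM. ENSDART00000170934.2 had 175.2 ± 19.8 CPM at 60 nM and 177.9 ± 16.5 CPM at 2.3 µM (SD, n = 3 libraries), a log2 difference of -0.02 (edgeR adjusted p = 0.922). With acetochlor the level was 11.9 ± 0.902 CPM at 780 nM and 15.4 ± 0.975 CPM at 7.8 µM. ENSDART00000164249.2 was likewise near one level at both tefluthrin concentrations, 4.43 ± 0.409 and 4.69 ± 0.195 CPM (edgeR adjusted p = 0.858). ENSDART00000169865.2 was higher at 60 nM, with 37.5 ± 2.37 CPM against 21.7 ± 0.581 CPM at 2.3 µM, a log2 difference of 0.79 (edgeR adjusted p = 0.000216). ENSDART00000048550.8 was also higher at 60 nM, with 66.3 ± 3.71 against 35.7 ± 5.84 CPM (log2 difference 0.89, edgeR adjusted p = 0.00132).

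The abundant transcripts that fell were lower at 60 nM than in the group labelled 2.3 µM. ENSDART00000012644.7 had 4280 ± 751 CPM at 60 nM and 6225 ± 1070 at 2.3 µM (SD, n = 3; log2 difference -0.54, edgeR adjusted p = 0.0438). ENSDART00000105036.7 had 2127 ± 261 and 3463 ± 592 CPM (log2 difference -0.70, edgeR adjusted p = 0.0103), and ENSDART00000004812.10 had 1525 ± 120 and 2231 ± 318 CPM (log2 difference -0.55, edgeR adjusted p = 0.0095). ENSDART00000152299.2 was lower at 60 nM by a small margin, 13.4 ± 0.233 against 16.2 ± 0.490 CPM (log2 difference -0.28, edgeR adjusted p = 0.00804). ENSDART00000099994.5 went the other way and was nearer to control at 60 nM, with 6213 ± 124 CPM against 7261 ± 256 CPM at 2.3 µM (log2 difference -0.23, edgeR adjusted p = 0.0268). The TMM factors ran from 0.9044 to 0.9355 in the 2.3 µM libraries and from 0.9879 to 1.04 at 60 nM. Differences of single transcripts between these groups were not refitted under another scaling, so the small ones may depend on it. ENSDART00000188485.1, present at 60 nM, was at 0 in all libraries of the other groups.

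**Figure D5:**
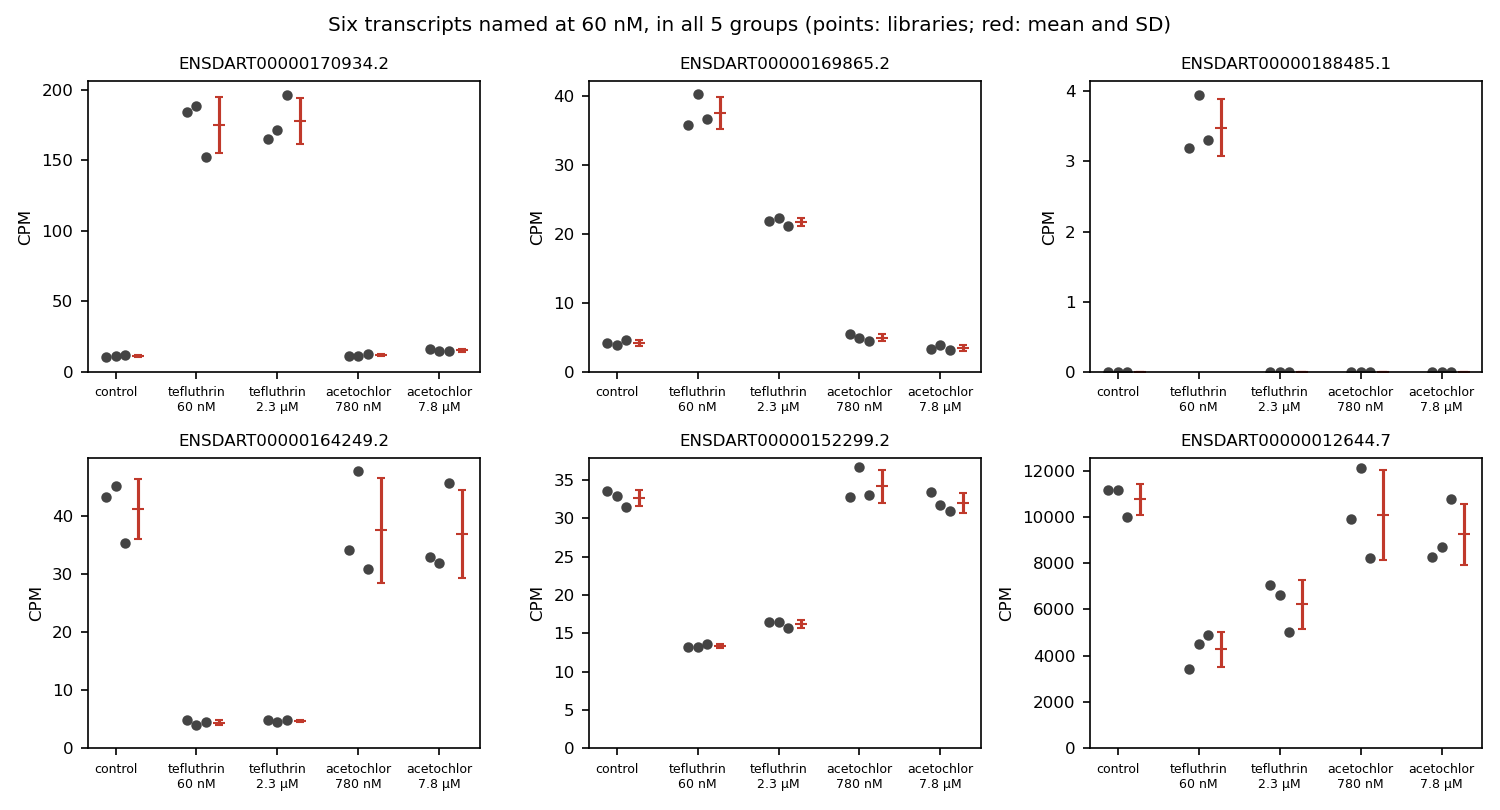
CPM of 6 of the named transcripts in all 5 groups, with 1 point per library and the mean and SD of the 3 libraries in red; each vertical axis starts at 0. ENSDART00000170934.2 and ENSDART00000164249.2 stand at like levels at both tefluthrin concentrations. With TMM scaling, the only one used for this comparison of single transcripts, ENSDART00000169865.2, ENSDART00000152299.2 and ENSDART00000012644.7 lie further from control at 60 nM than at 2.3 µM. ENSDART00000188485.1 is above 0 at 60 nM only, with 3.19 to 3.94 CPM.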

How the data were processed

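Poly(A)-selected RNA from pooled whole larvae was sequenced. The authors deposited 1 estimated count per transcript and library, not scaled for depth; the submitters' processing notes name Salmon 1.6.0 and the build GRCz11, while the annotation release is not given in the sources used here. Estimates were rounded to whole numbers and filtered with filterByExpr, which left 99.8% or more of every library's counts. TMM scaling and edgeR 4.0.16's quasi-likelihood test (R 4.3.3) followed, with group as the only term in 1 model of all 15 libraries; tests were two-sided and adjusted over 35865 transcripts. The SE is the log2 fold change divided by the square root of F. DESeq2 1.42.0 and limma 3.58.1 were alternatives. The fit and the search for read-sharing sets were run on simulated data simpler than these. Planted sets were small and of neighbouring transcripts, and planted changes were in well-expressed transcripts. Distant pairs, large sets and transcripts at 0 in a group were therefore not covered. The search took members fractional in at least 5 libraries and a rounding error of 0.0005 per member; pairs were sought anywhere, larger sets, up to 10 members, among fractional transcripts that follow each other in the table. It was added after the data were seen.

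Called transcripts could be named if the higher group averaged 10 counts or more and the 6 libraries did not overlap. Named were, in each direction, the 3 with the smallest p, the 2 largest changes per abundance class, the 3 largest with whole estimates, the 3 most abundant, and the 3 most abundant near-absent transcripts, called or not. The comparison, rules and classes were chosen with earlier results of these data known. Planned sums per gene and gene lists were not run, since no transcript could be paired with a gene. Replicates of a group differed by more than sampling noise (chi-square of 3.14 to 7.54 per degree of freedom over 8040 to 8047 transcripts; in control 3.14 between replicates I and II, 5.65 between I and III and 7.54 between II and III); nothing says that pools came from separate clutches, so p-values measure the spread between these pools. Floors and Poisson intervals cover counting error only.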

Additional observations from a re-analysis of the deposited data

Results flagged for a closer look

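The level at tefluthrin 60 nM differed from that of another exposed group, by edgeR's test of the difference itself, for 6847 transcripts in the case of tefluthrin 2.3 µM and for 5195 in the case of acetochlor 780 nM.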

How the results depend on the processing

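No named transcript changed the sign of its log2 fold change against control under the alternatives in which it had a value. With read-sharing sets summed, 26 of the 32 had a value. The set of ENSDART00000039667.7, which was itself higher at 60 nM, was then called lower (log2 fold change -0.50). The balance of higher and lower calls did turn: against control it was 2400 and 2434 without tefluthrin 60 nM replicate III, and against 2.3 µM 3021 and 3285 with only the 6 libraries and 3055 and 3221 with limma voom. The count of 5875 calls was 5872 with DESeq2-type size factors, 5779 with library totals as the only scaling, 4946 with no filter, 5567 with only the 6 libraries, 5894 with limma voom, 7447 with DESeq2, and, in alternatives added after the data were seen, 6144 with read-sharing sets summed and 4077 with only whole estimates and summed sets. Requiring a log2 fold change of 1 left 1696 calls (1121 higher, 575 lower), 1567 against 2.3 µM (965 higher, 602 lower) and 1550 against acetochlor 780 nM (1024 higher, 526 lower), and 5.6%, 5.294% and 7.137% of the classes from 1 CPM up. With only whole estimates 2416 of 8518 transcripts were called (1266 higher, 1150 lower). Library totals as the only scaling gave 5683 higher and 1864 lower against 2.3 µM. With only the 6 libraries compared, 3398 differed from acetochlor 780 nM, 1355 of them lower. The share called under 1 CPM was 0.4142% with no filter, 2.812% with only the 6 libraries, 3.727% with DESeq2 and 3.75% with classes set by the controls. At most 3 against at least 100 counts left 8 near-absent transcripts. The causes of these shifts were not tested.

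Leaving out 1 library gave 3997 to 5294 calls, 2145 to 2809 higher and 1852 to 2485 lower. Against 2.3 µM it gave 4426 to 5858 (2342 to 3125 higher, 2084 to 2733 lower), and against acetochlor 780 nM 3649 to 4684 (1566 to 2190 lower). The share called was 0.8479% to 1.336% under 1 CPM and 7.943% to 10.72% at 1 to 10 CPM, and 73 to 85 transcripts were near absent. With the replicate block 5276 transcripts were called, 2755 higher and 2521 lower. Same-numbered libraries did not deviate together (r = -0.025, -0.00542 and -0.00768), and none correlated best with its own number, so the numbers are not taken as pairs. Under the block 4 named calls were lost, those of ENSDART00000099994.5, ENSDART00000179797.1, ENSDART00000183979.1 and ENSDART00000188485.1, and 1 was gained, ENSDART00000181630.1. Sums per gene were not run. The class under 1 CPM had the largest median SE, 0.50 for whole and 1.14 for fractional estimates, and its smallest called change was 0.98 in log2; depth and the division of reads were not separated.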

Other observations

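With at least 30 counts in every library of 1 group and at most 3 in each of the other 12 libraries, 1 transcript was found at tefluthrin 60 nM, ENSDART00000188485.1, with 61, 71 and 61 counts there, 0 in all others and whole estimates throughout. The same limits gave 1 transcript at tefluthrin 2.3 µM, with fractional estimates, and 0 in each of the other groups. No transcript was near absent at 60 nM and present in all other libraries; 2 were at tefluthrin 2.3 µM and 1 at acetochlor 7.8 µM, all with fractional estimates.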
